A study of Mus musculus with 32 samples.

Results

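RNA of the endothelial fraction was compared with RNA of the rest of the same tumour in mice labelled sensitive to sunitinib. The EC fraction is the cells taken from a digested tumour with magnetic beads against PECAM-1, a surface protein of endothelial cells. The bulk fraction is the digested tissue left after that selection, so it is the tumour after removal of the bead-bound cells and not the whole tumour. Members were chosen by label, as the 4 EC and the 4 bulk arrays of sensitive mice 2 to 5, which makes 8 of the 32 samples of the series. The label holds against its markers: Pecam1 and Cdh5, the genes of PECAM-1 and VE-cadherin, were both higher in the EC fraction of all 4 mice.

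All tumours grew from 4T1-Luc, a luciferase-carrying mouse mammary carcinoma cell line, which was injected into the mammary fat pad of Balb/C females aged 8 weeks. The sensitive mice received 40 mg/kg sunitinib from 1 week after injection, and their label gives their tumours as sensitive up to day 8. Resistant mice, numbered 1 to 4, received the same dose and carry the opposite label, and vehicle mice, numbered 2 to 5, received the carrier of PBS and DMSO only. Tumours of all these groups were resected at 1300 mm3 and digested with collagenase in the presence of actinomycin D, a blocker of transcription. Every group has 4 arrays of each fraction, and the mouse number in the titles joins both fractions of a tumour. All results come from 1 cell line, so the tumour side of each comparison is a single model.

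Endothelial cells line blood vessels and are held to each other by VE-cadherin and tight junction proteins. Vascular endothelial growth factor (VEGF) acts on them through the receptors KDR and FLT1, drives the sprouting of tip cells and is checked by DLL4-Notch signalling, while angiopoietins act through the receptor TEK. Sunitinib inhibits receptor tyrosine kinases, among them the VEGF receptors, the PDGF receptors, KIT, CSF1R, FLT3 and RET. In 4T1 tumours the vessels lie among carcinoma cells, fibroblasts, pericytes, macrophages, neutrophils and lymphocytes, so each fraction holds a mixture.

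Levels are log2 processed signals relative to the 75th percentile of their array, so a level of 0 equals that percentile, and levels of different genes are not compared. A difference is the EC level minus the bulk level of the same mouse, averaged over 4 mice, and 1 log2 unit is 2-fold. A gene was called where limma's moderated test of these 4 differences gave an adjusted p under 0.05, after Benjamini-Hochberg adjustment over all genes tested. SE is the moderated standard error. Values of single mice are given in the order of mice 2, 3, 4 and 5.

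The EC arrays of sensitive mice lay on slide 1 and their bulk arrays on slide 3, and the vehicle arrays were split in the same way. In these mice slide and fraction cannot be told apart. All resistant arrays lay on slide 2, so their comparison of fractions is within a slide. In sensitive mice 79.9% to 86.4% of probes were well above background in the EC fraction and 69.9% to 82.4% in bulk. These shares were 46.1% to 52.9% in EC and 55.3% to 83.4% in bulk of resistant mice, and 80.3% to 82.2% in EC and 65.7% to 70.3% in bulk of vehicle mice. The precision of every value is limited by the 4 arrays in a group. Several bulk arrays stood apart. The bulk array of sensitive mouse 4 had higher endothelial levels than the others of its group, with a median of -0.57 over 17 endothelial identity genes against -2.18 to -1.83 in mice 2, 3 and 5. In vehicle mouse 3 that median was 2.23, against -1.73, -2.24 and -1.69 in the bulk of mice 2, 4 and 5. The bulk array of resistant mouse 2 had 83.4% of its probes well above background and a median signal of 369, against 55.3% to 58.7% and 37.7 to 46.8 in the other resistant bulk arrays. Counts of called genes and list medians of vehicle mice are given with and without mouse 3 and those of resistant mice with and without mouse 2. Values of single genes in these groups come from all 4 mice unless stated.

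Among the endothelial identity and transcription factor genes, RefSeq promoters (build GRCm38.p6) of Robo4 and Emcn are shown because these genes are the members with the largest difference that the sequence table holds. Capitals mark the match to CNGGAAG, read on both strands, which contains the GGAA core bound by ETS-family factors such as Erg and Fli1, and each window ends at the base before the gene start. The Robo4 window is chr9:37401722-37401971 on the plus strand, and the match starts 50 bases before the gene start on the strand of the gene. The Emcn window is chr3:137340828-137341077, also on the plus strand, and its match starts 174 bases before the gene start on the opposite strand.
Robo4: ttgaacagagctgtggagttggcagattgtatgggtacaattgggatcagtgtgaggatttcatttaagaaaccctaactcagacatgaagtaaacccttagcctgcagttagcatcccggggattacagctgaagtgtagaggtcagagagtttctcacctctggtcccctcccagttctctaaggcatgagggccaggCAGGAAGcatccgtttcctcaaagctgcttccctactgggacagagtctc
Emcn: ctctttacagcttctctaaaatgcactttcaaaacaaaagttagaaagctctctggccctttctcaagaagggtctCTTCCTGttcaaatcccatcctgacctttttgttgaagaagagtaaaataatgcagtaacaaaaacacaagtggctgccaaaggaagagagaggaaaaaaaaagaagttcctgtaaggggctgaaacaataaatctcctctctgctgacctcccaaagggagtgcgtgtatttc
The table holds 19 of the 40 identity and transcription factor genes, and 8 of these 19 (42.1%) have such a match in the 250 bases before the gene start. Over all genes of the table, 7084 of 27025 (26.2%) have one. A match describes letters only and is not a binding site.

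Of 17743 genes tested, 8499 were called (47.9%), of which 3980 were higher in the EC fraction (22.4%) and 4519 were lower (25.5%). The counts of called genes in every list below stand against these shares. Differences over 2-fold were more often rises: 2534 genes were called higher and over 2-fold (14.3%), and 1389 were called lower and over 2-fold (7.83%). Centring each array on its median instead of the 75th percentile moved the median difference of all genes from -0.08 to -0.34, and the called genes were then 30.7% higher ones instead of 46.8%. Small falls therefore depend on the scaling. Of 193 called genes named here and followed through 13 alternative settings, 39 lost their call under at least 1. The calls of Chst4, Ccl17, Gapdh, Rbpj, Ccl5, Klf4, Thy1, Klf2, Mzb1 and Plat were lost under 6 or more. In 6143 genes the call, the sign in all 4 mice, a signal well above background on all 8 arrays and a lack of overlap between the fractions held together. The largest rises among them were Robo4, Cdh5, Mmrn2, Ramp2, Fabp4, Ptprb, Sox7, Emcn, Esam, Grrp1, Ccm2l and Esm1, between 6.43 and 8.47. The largest falls were Hbb-bs, Hba-a1, Alas2, Pdcd1, Hbb-b2, Ifng, Cd8a, Hba-a2, Klrc3, Cypt12, Cxcr6 and Cd8b1, between -3.58 and -2.58. The globin genes have near-identical copies, so the split of signal among them is uncertain.

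Another 162 called genes were well above background on no bulk array, and none was so on no EC array. These 162 passed the filter of 4 arrays well above background only through their EC signals. Their calls, and their part in the counts of lists, are therefore not independent of that filter. For these only a bound can be given, computed from the mean EC level against the dimmest signal that each bulk array still rated well above background. Sox17, an endothelial transcription factor, was at least 265-fold higher in the EC fraction, Ldb2, a LIM-domain binding cofactor, at least 161-fold, and Glycam1, a mucin-like ligand of L-selectin, at least 83.2-fold. The Glycam1 bound is that of the mean and not of each mouse, as its EC levels were 3.68, -2.07, -1.70 and 3.44. The other bounds were at least 79.8-fold for Adgrl4, 73.9-fold for Cyyr1, 35.3-fold for Tacr1, 32.4-fold for C1qtnf9 and 24.9-fold for Pcdh17. Other named genes were dim on some of the 4 bulk arrays, and their differences rest partly on signals near background. Sele, Erg, Flt4, Pdgfd and Bmp6 were well above background on 1 bulk array, Shank3, Hey2 and Chst4 on 2, and Sox18, Tek, Kcnj8 and Lyve1 on 3.

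**Figure D1:**
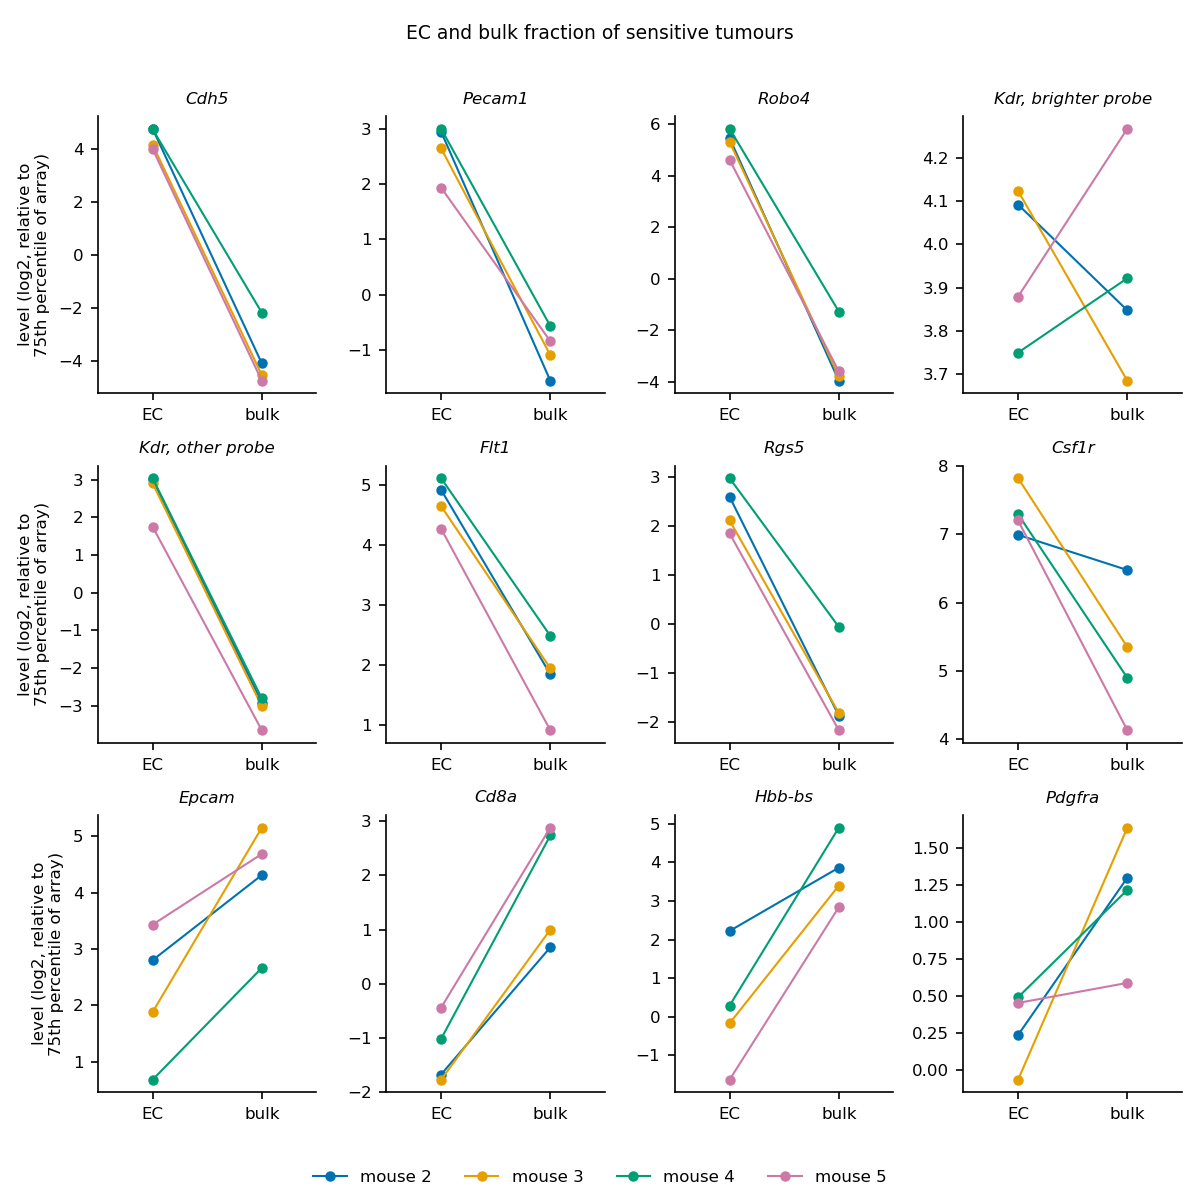
Level of 12 probes of 11 genes in the EC fraction (left) and the bulk fraction (right) of sensitive mice 2 to 5, as log2 signal relative to the 75th percentile of each array; each point is 1 array and each line joins both fractions of a mouse. Every panel has its own axis. Cdh5, Pecam1, Robo4, Flt1, Rgs5 and Csf1r were higher in the EC fraction of all 4 mice, the 2 Kdr probes differ, and Epcam, Cd8a, Hbb-bs and Pdgfra were higher in bulk of all 4 mice.

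All 17 genes of endothelial identity and junctions were called higher in the EC fraction, against 22.4% of all genes tested. Their median log2 difference was 5.40, where the median of all genes tested was -0.08. Cdh5, which encodes VE-cadherin of the adherens junction, had levels of 4.77, 4.17, 4.75 and 4.01 in the EC fraction, against -4.10, -4.55, -2.19 and -4.76 in the bulk fraction. The fractions were far apart in every mouse, with the highest bulk level in mouse 4, and the difference of 8.33 (SE 0.32, adjusted p 3.21e-06) is 321-fold. Robo4, a receptor of vessel guidance and stability, was at 5.46, 5.32, 5.82 and 4.61 in EC and -3.97, -3.80, -1.28 and -3.61 in bulk, again with mouse 4 highest in bulk (difference 8.47, SE 0.35, adjusted p 4.27e-06). Pecam1, whose protein the beads bind and whose difference checks that selection, had a smaller difference of 3.66 (SE 0.27, adjusted p 6.18e-05), at 2.95, 2.65, 3.01 and 1.94 in EC and -1.56, -1.10, -0.57 and -0.85 in bulk. Its fractions did not overlap.

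Other junction and surface genes followed the same order. Cldn5, the claudin of endothelial tight junctions, was at 4.43, 3.62, 4.52 and 3.57 in the EC fraction and -2.04, -2.32, -1.26 and -1.84 in bulk, a difference of 5.90. The adhesion molecules Esam, Jam2 and Icam2 differed by 6.99, 4.58 and 4.47. Ptprb, the phosphatase that acts on VE-cadherin and TEK, differed by 7.17, and Emcn, a sialomucin of capillaries and veins, by 7.00. The extracellular matrix protein genes Mmrn2 and Egfl7 differed by 7.70 and 5.40. Clec14a and Cd93, related C-type lectin family receptors, differed by 2.60 and 4.54, with the bulk of mouse 5 lowest for Cd93 (2.33, 1.88, 2.41 and -0.77). The smallest difference of the list was that of Eng, the endoglin co-receptor of TGF-beta family ligands, at 3.92, 3.61, 3.81 and 3.09 in EC and 2.32, 2.96, 2.49 and 3.18 in bulk. Eng was lower in EC than in bulk in mouse 5, its fractions overlapped, and its difference was 0.87 (SE 0.28, adjusted p 0.0324).

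Of 23 endothelial transcription factors tested, 19 were called higher, 1 lower and 3 were not called, with a median difference of 2.70. The SoxF genes, which direct arterial and lymphatic identity, were among the largest differences of the array. Sox7 was at 2.85, 2.15, 2.61 and 1.94 in the EC fraction and -4.00, -5.30, -4.67 and -4.81 in bulk (difference 7.08, SE 0.18), and Sox18 at 3.23, 2.34, 2.62 and 1.75 in EC and -4.49, -5.25, -3.25 and -6.05 in bulk (difference 7.25, SE 0.32). Sox17 was at 2.70, 2.29, 2.90 and 1.85 in EC and well above background on no bulk array, where its measured levels were -8.21, -7.17, -5.27 and -7.54. Each fraction spanned under 1.5 log2 units for Sox7, and for Sox17 and Sox18 mouse 4 had the highest bulk level.

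The ETS factors Erg and Fli1 differed by 5.47 and 3.01, and Erg was well above background on 1 of 4 bulk arrays. Ets1 of the same family was not called, at 3.06, 2.64, 3.24 and 2.58 in EC and 1.78, 1.97, 3.07 and 2.70 in bulk (difference 0.50, adjusted p 0.122). The homeobox genes Meox1, Meox2 and Hhex differed by 6.04, 6.33 and 3.28, and the haematopoietic and endothelial factors Tal1, Lmo2, Lyl1 and Gata2 by 3.78, 2.70, 2.01 and 4.56. Bcl6b, a zinc-finger repressor, differed by 4.66. Klf2 and Klf4, which respond to blood flow, were called with differences of only 0.56 and 0.50 (adjusted p 0.0322 and 0.0487). Foxc2, a forkhead factor of lymphatic valves that is also made by mesenchymal cells, was the member called lower, at 0.74, -0.19, 0.33 and 0.80 in EC and 1.33, 1.21, 1.35 and 1.17 in bulk (difference -0.85, adjusted p 0.0109). Foxf1 (-0.16) and Epas1, by its brightest probe (-0.23), were not called.

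Kdr, the main VEGF receptor of endothelial cells, differed between its 2 probes. The brighter probe was at 4.09, 4.12, 3.75 and 3.88 in the EC fraction and 3.85, 3.68, 3.92 and 4.27 in bulk, so the fractions overlapped and it was not called (difference 0.03, SE 0.19, adjusted p 0.908). The other probe was at 3.01, 2.90, 3.04 and 1.75 in EC and -2.92, -3.02, -2.81 and -3.66 in bulk, with a difference of 5.78 (SE 0.17) and an adjusted p of 1.36e-05 over all probes. Its fractions were separated in every mouse. The files give no sequence for either probe, and which probe reports the transcript was not tested.

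Other named genes also had probes that gave different calls, and their values here are those of the brightest probe unless another is named. Epas1, the hypoxia-inducible factor HIF-2 alpha, was not called on its brightest probe (difference -0.23), while its other 2 probes differed by 4.26 and 3.47 (adjusted p over all probes 2.19e-04 and 9.32e-04). The other probe of Efnb2 differed by 1.16, that of Notch1 by 1.35, that of Hspg2 by 0.63, that of Ets1 by 0.67 and that of Ephb4 by -0.67, all called, whereas the brightest probes of these 5 genes were not called. Itgam was likewise called on 1 of its other 2 probes (0.75). The reverse held for Gja5 and Shank3, whose other probes differed by 0.18 and 0.63 and were not called. Nor were the other probes of Cdk1 (0.49 and 0.19), Csf1 (-0.57 and -0.56), Fut7 (-1.07), Rbpj (-0.45), Slc16a3 (0.70) and Vegfa (0.57), all of the same sign as the brightest one. Of the other probes, 1 of 2 for Tfrc and 2 of 6 for Gapdh were not called. Of 2115 called genes with another tested probe, 119 had a probe called in the opposite direction.

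Flt1, the VEGF receptor that also acts as a decoy, was at 4.92, 4.65, 5.11 and 4.27 in the EC fraction and 1.85, 1.95, 2.49 and 0.92 in bulk (difference 2.94, SE 0.18, adjusted p 2.82e-05). Flt4, the receptor of VEGF-C, differed by 3.42 and was well above background on 1 bulk array. The semaphorin receptor Plxnd1 differed by 2.75 and the co-receptor Nrp1 by 1.32. Nrp2, a co-receptor found on veins, lymphatics and also tumour cells, was lower in EC in all 4 mice, at 4.26, 4.26, 4.48 and 4.27 against 4.87, 5.10, 5.30 and 4.76 in bulk (difference -0.69, adjusted p 0.00893). Of the ligands, Pgf was higher in EC by 1.90 and Vegfa by 0.78 (SE 0.23, adjusted p 0.0255), while Vegfb was lower (difference -1.53, adjusted p 2.71e-04). Vegfa had levels of 4.30, 4.91, 4.65 and 4.70 in EC and 3.86, 3.74, 4.50 and 3.36 in bulk, and only mouse 4 had bulk within the range of EC. Vegfc was not called, at 2.17, 2.11, 2.37 and 2.09 in EC and 2.14, 3.03, 1.94 and 2.23 in bulk.

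Among the 9 receptors that sunitinib inhibits, 6 were called higher in the EC fraction and 1 lower. The other 2 were not called, which were Kdr by its brighter probe and Flt3 (difference 0.08). The PDGF receptors went opposite ways. Pdgfrb, the receptor of pericytes, was at 1.92, 1.41, 2.68 and 2.03 in EC and 0.16, 0.60, 0.90 and -0.47 in bulk (difference 1.72, SE 0.26, adjusted p 0.00144). Pdgfra, the receptor of fibroblasts, was at 0.24, -0.07, 0.49 and 0.45 in EC and 1.30, 1.64, 1.22 and 0.59 in bulk, where only mouse 5 had close levels (difference -0.91, SE 0.25, adjusted p 0.0189). Kit, the stem cell factor receptor of mast cells and some endothelium, was at 2.20, 1.75, 2.67 and 1.53 in EC and -0.15, -1.59, 0.28 and 0.19 in bulk (difference 2.36, adjusted p 6.23e-04). Csf1r, the receptor of macrophages, was at 6.99, 7.82, 7.29 and 7.20 in EC and 6.48, 5.35, 4.90 and 4.13 in bulk (difference 2.11, SE 0.37, adjusted p 0.00274). The EC levels of Csf1r were close to each other, and bulk was highest in mouse 2 and lowest in mouse 5. Ret was well above background on all 4 EC arrays and no bulk array, at least 6.59-fold higher in EC.

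Of 14 ligands of these receptors tested, 4 were called higher in the EC fraction, which were Vegfa, Pgf, Pdgfb and Pdgfd, and 6 lower, which were Vegfb, Pdgfa, Pdgfc, Csf1, Il34 and Flt3l. Over all genes tested 22.4% were higher and 25.5% lower, so the count of higher ligands is near that share and is not read as a result. Pdgfb, the ligand by which endothelium recruits pericytes, was at 3.70, 3.65, 3.94 and 3.68 in EC and 1.93, 2.50, 0.92 and 2.86 in bulk (difference 1.69, adjusted p 0.0046), and Pdgfd differed by 4.11. The macrophage growth factors Csf1 and Il34 were lower in EC (differences -1.05 and -1.04), while their receptor Csf1r was higher. The median over all 14 changed sign among alternative settings.

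Of 18 tip cell and VEGF-responsive genes, 16 were called higher in the EC fraction and none lower. Esm1, a secreted proteoglycan of tip cells, was at 3.91, 4.49, 6.01 and 4.47 in EC and -2.12, -2.17, -0.78 and -1.74 in bulk, highest in both fractions of mouse 4 (difference 6.43, SE 0.19, adjusted p 1.55e-06). Angpt2, the angiopoietin released by activated endothelium, was at 3.56, 4.01, 4.98 and 3.44 in EC and -0.62, -0.96, -0.90 and -1.59 in bulk, and Apln, the tip cell peptide apelin, at 3.30, 3.83, 5.15 and 3.83 in EC and 1.15, 1.21, 0.79 and 1.26 in bulk. Mouse 4 had the highest EC level for each of these 3 genes. The apelin receptor Aplnr differed by 3.97, the matrix protein Nid2 by 6.16, the channel subunit Kcne3 by 4.74 and the chemokine receptor Cxcr4 by 2.03. Unc5b and Hspg2 were not called (differences -0.49 and 0.20).

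Of 15 Notch pathway genes, 9 were called higher and 1 lower, against 22.4% and 25.5% of all genes tested. The ligand Dll4 was at 1.21, 0.96, 1.64 and 0.42 in the EC fraction and -2.51, -2.67, -2.55 and -2.11 in bulk (difference 3.51), and the endothelial receptor Notch4 at 3.23, 2.88, 3.51 and 2.27 in EC and -1.72, -1.77, -1.46 and -1.89 in bulk (difference 4.68), both without overlap. The targets Hey1, Hey2 and Heyl differed by 2.13, 2.21 and 1.53. Rbpj, the DNA-binding partner of Notch in all cells, was the member called lower (-0.50, adjusted p 0.0352). Notch1 varied widely, at 0.67, -1.03, -1.75 and -1.27 in EC and -2.29, -1.19, 1.51 and -1.92 in bulk, and its difference of 0.12 had an SE of 0.81. In the angiopoietin group, the receptors Tek and Tie1 differed by 5.53 and 5.77, and Angpt1, made by pericytes, was not called (0.06).

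Markers of vessel types were higher in EC for each type, with differences between their members. Of 12 arterial genes 9 were called higher and none lower: the connexins Gja5 and Gja4 differed by 4.14 and 2.83, while Efnb2, the arterial ephrin, had levels of 2.41, 1.88, 2.26 and 2.05 in EC and 1.90, 2.19, 2.18 and 2.15 in bulk and was not called. Of 8 venous genes 6 were called higher and Nrp2 lower: Vwf differed by 5.58, the chemokine-binding receptor Ackr1 by 3.91 and P-selectin (Selp) by 3.40, and Ephb4, the partner of Efnb2, by -0.32 without a call. Of 12 capillary genes 10 were called higher and 1 lower. Fabp4, a fatty acid binding protein, was at 7.18, 6.54, 6.93 and 6.29 in EC and -0.68, -1.09, 1.61 and -1.75 in bulk (difference 7.22), Plvap, the protein of endothelial diaphragms, differed by 6.40, Cd36 by 5.46, Gpihbp1 by 4.63 and Cav1 by 4.68. The transferrin receptor Tfrc, abundant in dividing cells, was the member called lower (difference -0.82).

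Of 11 leukocyte adhesion and high venule genes 7 were called higher and 1 lower. The 4 mice were not alike in genes of high endothelial venules, the vessels by which lymphocytes leave blood. Glycam1 was at 3.68, -2.07, -1.70 and 3.44 in the EC fraction and well above background on no bulk array, with mice 2 and 5 far above mice 3 and 4. Chst4, the sulphotransferase of L-selectin ligands, had its higher EC levels in the same mice, at -2.55, -4.74, -5.15 and -1.90, against -5.39, -5.71, -4.51 and -5.61 in bulk (difference 1.72, SE 0.62, adjusted p 0.0499). Madcam1, another L-selectin ligand, was not called, at -1.39, -1.95, -2.02 and -2.04 in EC and -2.70, -1.77, -1.35 and -1.53 in bulk. Sele, the E-selectin of inflamed endothelium, differed by 5.50, with the highest bulk level in mouse 4 (-6.99, -7.69, -4.31 and -7.59), the array among 4 on which it was well above background. Vcam1, which other stromal cells also carry, was at 4.06, 4.79, 4.33 and 4.12 in EC and 4.35, 4.62, 4.55 and 3.90 in bulk and was not called. Fut7, an enzyme of selectin ligands that leukocytes also make, was lower in EC (difference -0.96, adjusted p 0.0422).

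All 9 haemostasis genes were called higher, from Plat, the tissue plasminogen activator (0.57), to Vwf. Of these, 1 was well above background on no bulk array and passed the filter only through its EC signals. Thrombomodulin (Thbd) was at 2.37, 2.06, 2.35 and 1.46 in EC and -1.31, -1.40, -1.34 and -4.06 in bulk (difference 4.09). Among receptors coupled to G proteins, 8 of 10 were called higher and none lower, and 2 of the 10 likewise passed only through their EC signals. Ramp2, which with Calcrl forms the adrenomedullin receptor, was at 5.44, 5.14, 5.62 and 4.66 in EC and -1.83, -2.56, -0.87 and -3.37 in bulk (difference 7.37, SE 0.25), and S1pr1, the receptor of sphingosine 1-phosphate, differed by 5.09. Calcrl itself was well above background on no bulk array and at least 5.92-fold higher in EC. Adm, which encodes adrenomedullin, was higher by 1.97.

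Of 11 genes of endothelial GTPase and adaptor signalling, 10 were called higher and 1 lower. Rasip1, a Ras-interacting protein of vessel lumens, differed by 5.95, Shank3 by 5.92 and She by 5.97. Rapgef3, the cAMP-activated exchange factor, was the member called lower (-0.88). Of 8 vasoactive genes 6 were called higher: the nitric oxide synthase Nos3 was at 4.02, 3.68, 4.32 and 3.36 in EC and -0.61, -0.67, -0.34 and -0.30 in bulk, and endothelin (Edn1) at 1.44, 1.17, 2.07 and 0.88 in EC and -4.05, -3.67, -4.09 and -3.21 in bulk. Ace, the angiotensin converting enzyme, was lower in all 4 mice, at 1.72, 0.85, 1.34 and 1.07 in EC and 1.99, 1.73, 2.55 and 2.23 in bulk (difference -0.88, adjusted p 0.00827). In the TGF-beta and BMP list, 8 of 16 were called higher, against 22.4% of all genes tested, led by Bmp2 (5.78), Bmp6 (3.82) and Bmp4 (3.52). Tgfb3 (-0.64) and Id3 (-0.99) were called lower. Of 13 basement membrane genes 8 were called higher. The collagen IV genes Col4a1 and Col4a2 differed by 2.20 and 2.61 and the laminin gene Lama4 by 2.94, while Lama5, a laminin of epithelial membranes as well, was lower (difference -1.13).

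**Figure D2:**
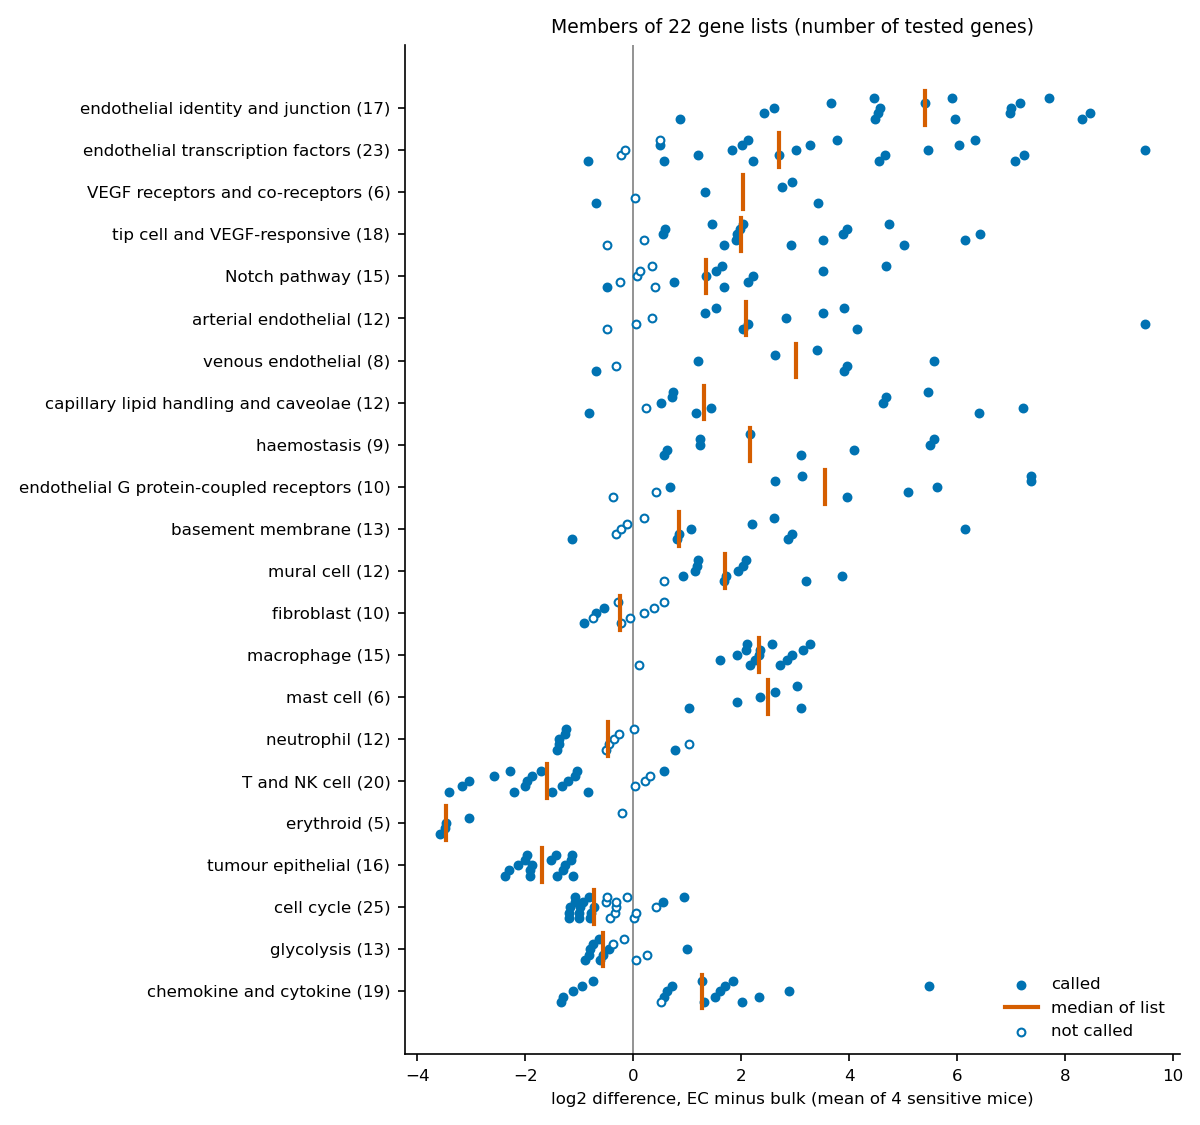
Log2 difference between EC and bulk (EC minus bulk, mean of 4 sensitive mice) of every tested member of 22 gene lists; each point is a gene, filled where it was called, and the bar is the median of the list. Genes dim on bulk arrays stand at their measured values. All 17 identity genes lie right of 0, and all 16 tumour epithelial genes and 16 of the 20 T and NK genes were called lower.

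Of 12 mural cell genes, which mark the pericytes and smooth muscle cells wrapped round vessels, 11 were called higher in the EC fraction and none lower, with a median of 1.70. Rgs5, a pericyte regulator of G protein signalling, was at 2.59, 2.11, 2.97 and 1.84 in EC and -1.88, -1.83, -0.07 and -2.18 in bulk (difference 3.87, SE 0.24, adjusted p 2.76e-05). The channel genes Kcnj8 and Abcc9 differed by 3.20 and 2.03, and Myh11 of smooth muscle by 1.94. Acta2 and Tagln, which myofibroblasts share, differed by 1.15 and 1.18. The median level of the list was 1.78, 1.02, 2.14 and 1.39 in EC and -0.61, -0.24, 0.09 and -0.71 in bulk. As these are mixed samples, fewer cells of a type and less of its RNA per cell cannot be told apart, here and in the following lists.

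Of 10 fibroblast genes none was called higher and 3 were called lower, a share near the 25.5% of all genes tested. These were Dcn (-0.69), Pdgfra (-0.91) and Thy1 (-0.54). Col1a1, the main fibrillar collagen, was at 5.88, 5.26, 5.99 and 6.44 in EC and 6.16, 6.35, 5.99 and 5.33 in bulk, so mouse 5 differed in direction from mice 2 and 3. The median of the fibroblast list changed sign among alternative settings.

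Macrophage genes were higher in the EC fraction. Of 15 tested, 14 were called, with a median of 2.33, and Itgam, which neutrophils share, was not called (0.10). Mrc1, the mannose receptor, was at 3.79, 4.61, 4.51 and 3.49 in EC and 2.27, 1.32, 0.43 and -0.76 in bulk (difference 3.28, SE 0.41, adjusted p 6.49e-04). Adgre1, which encodes F4/80, was at 2.87, 4.08, 3.12 and 3.34 in EC and 1.52, 0.60, -0.57 and -0.74 in bulk, and C1qa, a complement component, at 6.44, 7.00, 6.28 and 6.32 in EC and 5.40, 4.55, 3.66 and 3.39 in bulk. The difference was smallest in mouse 2 for all 3. Over the whole list the median difference was 1.08, 2.52, 2.67 and 3.09, smallest in mouse 2, where bulk was highest. All 15 were well above background on all 4 EC arrays. The part of macrophage RNA in the other differences was not tested.

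Mast cell genes moved with them: all 6 tested were called higher, from Tpsb2 (1.02) to the carboxypeptidase Cpa3 (3.12), which was at 1.78, 0.44, -1.16 and 0.55 in EC and -1.09, -3.09, -3.79 and -2.88 in bulk. Among 10 platelet genes 5 were called higher and 1 lower. Pf4, a platelet chemokine that macrophages can also make, was at 4.17, 4.74, 5.99 and 3.45 in EC and 2.99, 2.33, 2.75 and -0.56 in bulk. The platelet receptor genes were not alike: Gp1ba was higher by 1.91 (adjusted p over all probes 9.30e-04), while Gp9 and Gp1bb were not called (-0.48 and 0.09). The 4 lymphatic endothelial genes tested were called higher, among them Lyve1, which some macrophages share (4.24), and Prox1, the defining factor of lymphatic endothelium, was too dim to be tested. Only 1 of these 4 was well above background on all 4 bulk arrays, and 1 was so on no bulk array. They passed the filter partly through their EC signals, so their count is not independent of it. Of 6 eosinophil genes 3 were called higher, led by Prg2 (1.78). In the B and plasma cell list 4 of 7 were called higher and the plasma cell genes Jchain (-2.39) and Mzb1 (-1.17) lower. Of 7 dendritic cell genes 2 were called higher, a share near the 22.4% of all genes tested, and none lower. Of 14 lysosome genes 6 were called higher, led by Hexa (1.79), and none lower. The counts of these short lists stand against 22.4% higher and 25.5% lower over all genes tested.

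**Figure D3:**
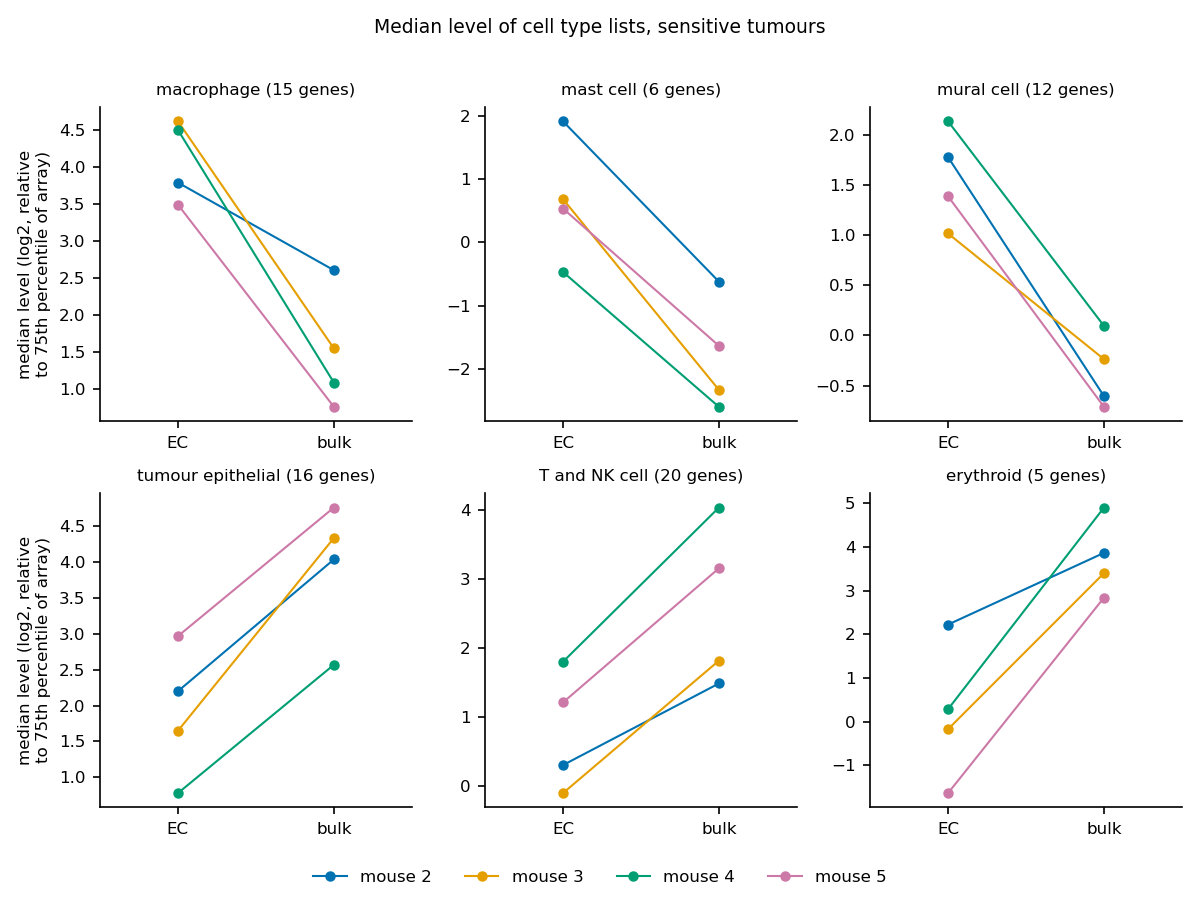
Median level of 6 cell type lists in the EC fraction (left) and the bulk fraction (right) of sensitive mice 2 to 5, as log2 signal relative to the 75th percentile of each array; lines join both fractions of a mouse and every panel has its own axis. Macrophage, mast and mural medians were higher in EC of all 4 mice, and tumour epithelial, T and NK, and erythroid medians were higher in bulk of all 4 mice.

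All 16 tumour epithelial genes were called lower in the EC fraction, against 25.5% of all genes tested, with a median of -1.69. Epcam, an epithelial adhesion molecule, was at 2.80, 1.88, 0.68 and 3.43 in EC and 4.31, 5.15, 2.67 and 4.68 in bulk (difference -2.00, SE 0.31, adjusted p 0.00165). Krt8, the keratin of simple epithelia, was at 4.39, 4.18, 4.00 and 4.87 in EC and 6.13, 6.29, 6.20 and 6.68 in bulk, and the claudin Cldn4 differed by -2.38. Of the 16, 4 had fractions that did not overlap, and 24.3% of all genes tested were lower in EC without overlap. All 16 were well above background on all 8 arrays, those of the EC fraction included.

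T and NK cell genes were lower as well: 16 of 20 were called lower and 1 higher. Pdcd1, the checkpoint receptor PD-1, was at -0.42, -0.36, 0.77 and 0.97 in EC and 2.35, 2.71, 4.85 and 4.71 in bulk (difference -3.41, SE 0.24, adjusted p 5.15e-05). Cd8a of cytotoxic T cells was at -1.67, -1.77, -1.02 and -0.44 in EC and 0.67, 1.00, 2.74 and 2.88 in bulk, and Ifng, the cytokine interferon gamma, at -0.07, 0.19, 1.27 and 2.04 in EC and 2.73, 3.03, 5.43 and 4.95 in bulk. Both fractions were higher in mice 4 and 5 than in mice 2 and 3 for these genes, and the fractions did not overlap for any of the 3. The T cell receptor subunits Cd3d, Cd3e and Cd3g differed by -2.01, -1.33 and -2.22. Granzyme B (Gzmb) stood at -0.57, -0.20, 4.60 and 0.80 in EC and 0.39, 1.17, 4.69 and 2.59 in bulk, so mouse 4 was far above the others in both fractions. Cd4, which macrophages can share, was not called (0.22), nor were the NK receptors Klrb1c (0.30) and Ncr1 (0.03). Foxp3, the factor of regulatory T cells, was the member called higher, at -1.43, -1.41, -1.53 and -1.30 in EC and -1.88, -2.14, -2.16 and -1.75 in bulk (difference 0.56, adjusted p 0.019).

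Of 5 erythroid genes 4 were called lower. Alas2, the first enzyme of haem synthesis in red cells, was at -0.06, -2.42, -2.19 and -3.48 in EC and 2.01, 0.73, 2.56 and 0.46 in bulk (difference -3.48, SE 0.38), with mouse 2 highest in EC, and the globin probes moved with it. Of 12 neutrophil genes 5 were called lower and 1 higher. The granule genes Camp, Ngp and Ltf differed by -1.42, -1.26 and -1.37, Elane was higher by 0.78, and the abundant S100a8 and S100a9 were not called (-0.37 and -0.26). Of 8 skeletal muscle genes Tnnt3 was called lower (-1.85) and none higher, and of 9 adipocyte genes 3 were called higher by 0.57 to 0.68. Over all genes tested 22.4% were higher and 25.5% lower, so the skeletal muscle and adipocyte counts are not read as a result.

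Among 25 cell cycle genes, 13 were called lower in the EC fraction and 2 higher, with a median of -0.73. Top2a, the topoisomerase of dividing cells, was at 1.05, 1.16, 1.49 and 0.90 in EC and 2.19, 2.39, 2.65 and 2.09 in bulk (difference -1.18, adjusted p 6.80e-04), and the replication genes Mcm5, Mcm6 and Mcm7 differed by -1.18, -0.82 and -1.08. Mki67 was not called (-0.32), and Cdk1 (0.95) and Tyms (0.56) were the members called higher. Of 13 glycolysis genes 8 were called lower, by -0.46 for Gapdh to -0.89 for Pfkl, and the lactate exporter Slc16a3 higher (0.99). Of 12 hypoxia genes Adm, Hilpda (0.99) and Vegfa were called higher and Car9, Ndrg1 (-0.64) and Ddit4 (-0.71) lower, which are shares near those of all genes tested (22.4% higher and 25.5% lower). Car9, a carbonic anhydrase of hypoxic tumour cells, was at 2.59, 1.86, 2.98 and 2.94 in EC and 4.48, 4.52, 5.19 and 4.36 in bulk (difference -2.05).

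Of 19 chemokine and cytokine genes 13 were called higher and 5 lower. Cxcl12, the ligand of Cxcr4 made by vascular and stromal cells, was at 3.55, 3.32, 3.86 and 2.80 in EC and -2.25, -2.54, -0.76 and -2.87 in bulk (difference 5.49, SE 0.23, adjusted p 4.80e-06), and Il6 differed by 2.89. The myeloid chemokine Ccl7 was higher by 2.33 and Cxcl2 by 1.69, while Cx3cl1 (-1.31), Csf2 (-1.34), Csf3 (-0.94), Ccl5 (-1.12) and Ccl17 (-0.75) were lower. Type I interferon genes gave 5 higher, led by Rsad2 (1.62), and 2 lower, Usp18 (-0.92) and Bst2 (-0.85), of 13. In antigen presentation the MHC class II genes H2-Ab1 and H2-Eb1 and B2m were called higher (0.78, 0.61 and 0.58), and the immunoproteasome genes Psmb8 and Psmb9, with Tap1 and H2-D1, lower (-1.21, -0.97, -0.58 and -0.54). Immediate early genes, which tissue digestion can induce, were 3 higher, 5 lower and 11 not called of 19: Fos was at 6.03, 6.26, 5.78 and 6.37 in EC and 5.93, 6.10, 5.31 and 6.45 in bulk, and Zfp36 differed most (2.44). The ER stress list had 3 of 10 called lower, and the mesenchymal list had Snai2 (1.76), Zeb1 (1.62) and Zeb2 (1.55) higher and Snai1 (-0.63) and S100a4 (-1.59) lower. All genes tested gave 22.4% higher and 25.5% lower, and the shares of called genes in the antigen presentation, immediate early, ER stress and mesenchymal lists were not far from these. The medians of the antigen presentation, immediate early and mesenchymal lists changed sign among alternative settings.

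In vehicle mice, 3166 of 17339 genes tested were called higher in EC (18.3%) and 2924 lower (16.9%), and without mouse 3 these counts were 2562 (15.5%) and 2986 (18%) of 16556. In resistant mice, with both fractions on 1 slide, 1401 of 14243 were called higher (9.84%) and 884 lower (6.21%), but 511 (3.68%) and 159 (1.15%) of 13879 without mouse 2. Of the 3980 genes called higher in sensitive mice, 2478 (62.3%) were called higher in vehicle mice, which is 78.3% of those called there, and 1176 (29.5%) in resistant mice, 83.9% of those called there. Of the 4519 called lower, 2459 (54.4%, and 84.1% of the vehicle calls) and 653 (14.5%, and 73.9% of the resistant calls) were lower there too. Without vehicle mouse 3 the shared calls were 2090 higher and 2607 lower, and without resistant mouse 2 they were 483 and 129. Directions were shared more widely: 98.4% of the higher and 95.3% of the lower genes that were tested in vehicle mice had the same sign there, and 84.2% and 84.6% in resistant mice. Without vehicle mouse 3 these shares were 98.2% and 96.3%, and without resistant mouse 2 they were 88.8% and 88.8%.

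The endothelial identity genes had median differences of 5.40 in sensitive mice, 3.71 in resistant and 4.10 in vehicle mice. By mouse they were 5.29, 5.35, 4.96 and 5.53 in sensitive, 4.03, 3.29, 3.47 and 3.95 in resistant and 5.08, 1.22, 5.13 and 4.38 in vehicle mice. Vehicle mouse 3 was far below all others, and without it the vehicle median was 5.02. Without resistant mouse 2 the resistant median was 3.80. In each of the other mouse groups 16 of the 17 were called higher, and Eng was not (0.57 in resistant and 0.27 in vehicle mice). Cdh5 differed by 8.33 in sensitive, 4.36 in resistant and 5.47 in vehicle mice, or 6.68 in vehicle mice without mouse 3. Pecam1 differed by 3.66 in sensitive, 2.57 in resistant and 2.39 in vehicle mice, and the dimmer Kdr probe by 5.78 in sensitive, 4.52 in resistant and 3.65 in vehicle mice. In vehicle bulk that Kdr probe was at 0.24 in mouse 3, against -3.30, -2.74 and -2.37 in mice 2, 4 and 5. In resistant bulk it was at -3.33 in mouse 2, against -1.92, -1.83 and -2.26 in mice 1, 3 and 4. The order of the resistant and vehicle values of Kdr therefore depends on these single mice.

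The medians of the macrophage, mural, tumour epithelial and T and NK lists had the same direction in all mouse groups. By mouse, only the T and NK median of vehicle mouse 3 went the other way (0.48). In resistant mice 6 of 16 tumour epithelial genes were called lower, and 0 of 16 without mouse 2, while 2 of 12 mural genes were called higher. Of 20 T and NK genes, 3 were called lower in vehicle mice, where 16.9% of all genes were, and 19 in resistant mice. In resistant mice the dendritic, B and plasma and adipocyte medians were -0.83, -0.17 and -0.48, against 0.13, 0.81 and 0.57 in sensitive mice. Without resistant mouse 2 they were -0.95, -0.57 and 0.33. Fewer B and plasma and adipocyte genes were tested in resistant mice, and the dendritic median in sensitive mice changed sign among alternative settings. The macrophage median was 2.33 in sensitive, 3.03 in resistant and 1.49 in vehicle mice, and the mural one 1.70 in sensitive, 0.82 in resistant and 1.01 in vehicle mice. That of tumour epithelial genes was -1.69 in sensitive, -1.32 in resistant and -1.18 in vehicle mice. The T and NK median was -1.60 in sensitive, -2.20 in resistant and -1.09 in vehicle mice. Without vehicle mouse 3 and resistant mouse 2, the macrophage medians were 3.03 in resistant and 1.72 in vehicle mice, and limma called 0 of 14 macrophage genes in the 3 resistant mice left, where 13 had an unadjusted p under 0.05, against 13 called in all 4 resistant mice. Without the same 2 mice the mural medians were 1.11 in resistant and 1.34 in vehicle mice, the tumour epithelial medians -1.55 in resistant and -1.5 in vehicle mice, and the T and NK medians -2.54 in resistant and -1.65 in vehicle mice. The cell cycle list, with a median of -0.73 in sensitive and -0.81 in vehicle mice, was at -0.09 in resistant mice, where limma called none of 25, against 6.21% of all genes called lower there, and 2 had an unadjusted p under 0.05. The eosinophil list had a median of 0.69 in sensitive mice, -1.27 in resistant and 1.81 in vehicle mice. These medians cover 6 genes in sensitive and vehicle mice and 4 in resistant mice, where the others were too dim to be tested. Without resistant mouse 2 and vehicle mouse 3 the cell cycle medians were -0.23 in resistant and -0.76 in vehicle mice and the eosinophil medians -1.11 in resistant and 1.52 in vehicle mice. By mouse, with the dim genes included, all 4 resistant mice were below 0 in the eosinophil list and all sensitive and vehicle mice above 0.

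**Figure D4:**
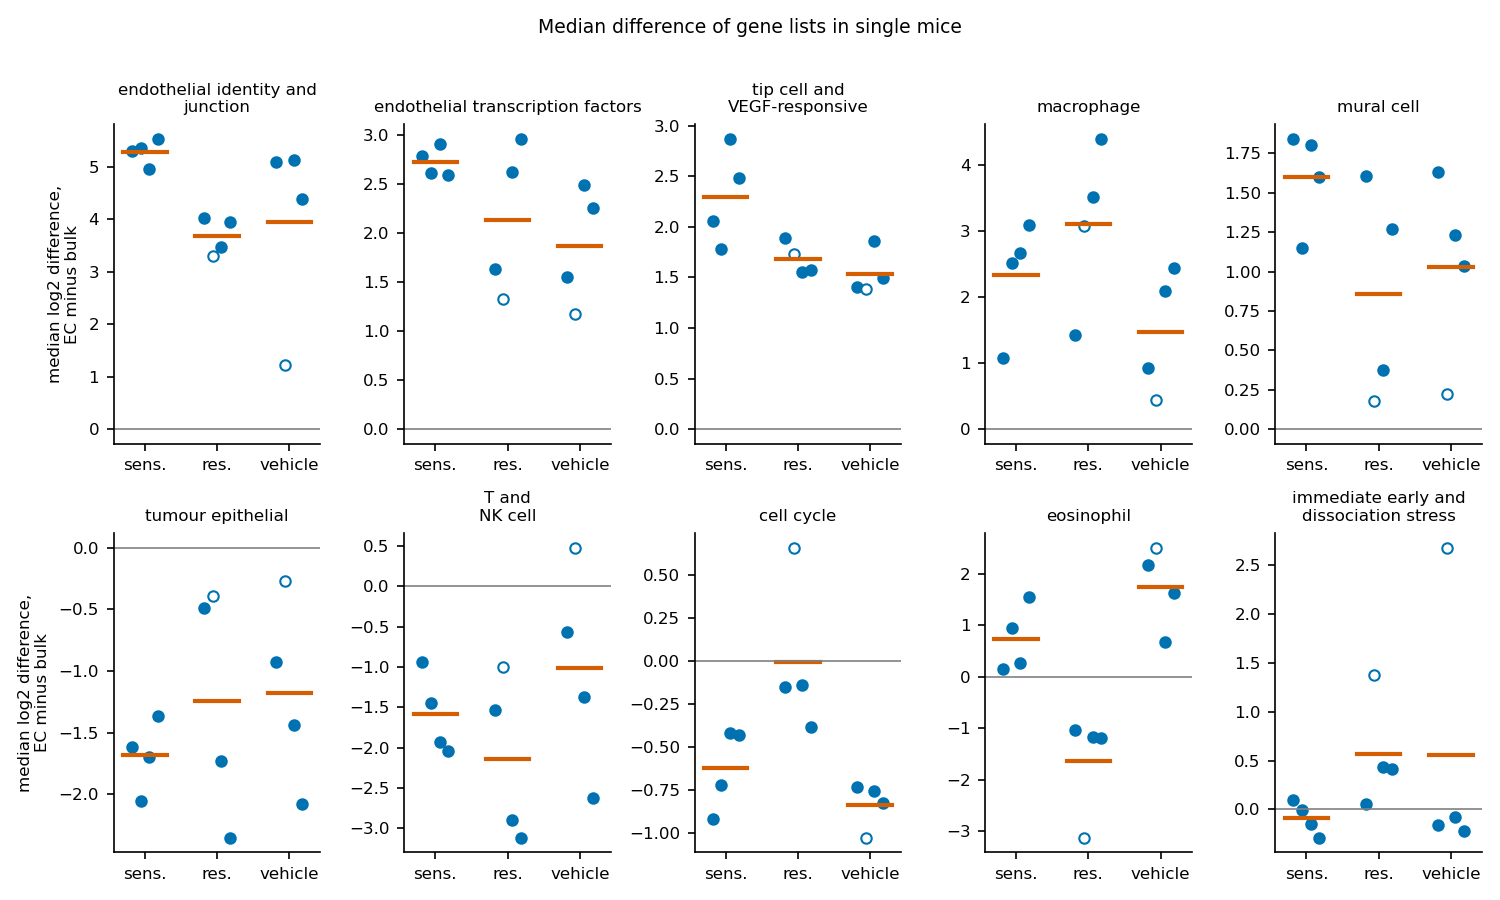
Median log2 difference (EC minus bulk) of 10 gene lists in single mice: sensitive (left), resistant (middle) and vehicle (right), 4 mice each, with a bar at the mean of the 4 medians. Vehicle mouse 3 and resistant mouse 2 are drawn as open points. Each median covers the members tested in sensitive mice, also where some are dim in another group. The endothelial identity medians were 4.96 to 5.53 in sensitive mice, 3.29 to 4.03 in resistant mice and 1.22 to 5.13 in vehicle mice.

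The differences between mouse groups were tested themselves, on the within-mouse differences. A larger difference here means a larger signed value of EC minus bulk, so any value above 0 is larger than any value below 0. Between sensitive and vehicle mice 1 of 18116 genes was called (0.00552%), and 1859 had an unadjusted p under 0.05. This gene, H2-M10.2, an MHC class I-like gene, was well above background on 3 sensitive bulk arrays and on no vehicle bulk array, so the size of this difference is not given (adjusted p 0.0192). Next to it, Gpr173, Fga, Plekha6 and Ntng1 had the smallest p among genes with the larger difference in vehicle mice and were not called (adjusted p 0.139 to 0.154). The genes with the smallest p among those larger in sensitive mice were Spaca1, Gm14124, Pgm5, Akr1c14 and Glod5, and none was called (adjusted p 0.139 to 0.192). Sensitive EC arrays lay on slide 1, sensitive bulk arrays on slide 3 and all resistant arrays on slide 2. Mouse group and slide layout therefore cannot be told apart in the test of sensitive against resistant mice. Between sensitive and resistant mice 34 of 18011 genes were called (0.189%), and 3144 had an unadjusted p under 0.05. All 34 had the larger signed difference in sensitive mice. Without resistant mouse 2 the count was 693, and it was 13 without sensitive mouse 4, 1 without resistant mouse 1 and 0 without each of sensitive mice 2, 3 and 5 and resistant mice 3 and 4, where 2076 to 2843 genes had an unadjusted p under 0.05. It was 0 with the array median as the centre (970 at an unadjusted p under 0.05), 97 with quantile normalization, 237 with the deposited table and 266 with normexp background correction, so the count depends on the processing and on single mice. The direction was less uniform in most of the settings with more calls. The larger difference was in sensitive mice for 82.5% of the calls with quantile normalization, 81.9% with the deposited table, 62.5% with signals above background on every array, 33.1% with normexp, 50% with a spread shared by all 12 mice, 44.5% with fractions as independent groups and 48.6% without resistant mouse 2.

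Of these 34 genes, 17 belong to the lists and all but Foxp3 are genes of endothelial or chemokine lists. By the smallest p the 34 were led by Adgrl4, Nap1l3, Esm1, Ldb2 and Tspan7. Nap1l3 was dim on all EC arrays of resistant mice and changed sign with normexp background correction, so no size is given for it. Adgrl4, Ldb2 and Sox17, which is also among the 34, were well above background on no bulk array of sensitive mice, so the sizes of their differences rest on dim bulk signals and are not given. Esm1 differed by 6.43 in sensitive and 3.36 in resistant mice (difference between them 3.07, SE 0.31, adjusted p 0.0266), and Tspan7, a tetraspanin, by 6.07 in sensitive and 3.34 in resistant mice. Cdh5 (8.33 in sensitive and 4.36 in resistant), Robo4 (8.47 in sensitive, 4.58 in resistant), Emcn (7.00 in sensitive, 3.75 in resistant) and Cldn5 (5.90 in sensitive, 3.30 in resistant) were called too. So were Sox7 (7.08 in sensitive, 3.09 in resistant), Sox18 (7.25 in sensitive, 3.71 in resistant), Nid2 (6.16 in sensitive, 3.08 in resistant) and Tie1 (5.77 in sensitive, 3.01 in resistant). The other list members apart from Foxp3 were Ramp2, Adgrf5, Rasip1, Shank3 and Cxcl12, with differences of 5.49 to 7.37 in sensitive and 2.95 to 4.25 in resistant mice. These genes were higher in EC in both mouse groups. The resistant arrays had 46.1% to 58.7% of probes well above background outside bulk mouse 2, against 69.9% to 86.4% on the sensitive arrays, and the part of this in the smaller resistant differences was not tested. Foxp3 differed by 0.56 in sensitive mice and by -3.19 in resistant mice, so the sign was opposite (difference between them 3.75, SE 0.49, adjusted p 0.0377). In resistant mice Foxp3 was well above background on 1 of 4 EC arrays, so the size there rests on dim signals. The genes with the smallest p among those with the larger signed difference in resistant mice, Cdkl1, H4f16, Rdm1, Elk4 and Plppr3, were not called (differences between mouse groups -1.95 to -1.36, adjusted p 0.0542 to 0.0739). Of these, H4f16, Rdm1, Elk4 and Plppr3 were below 0 in sensitive mice (-1.14 to -1.02) and above 0 in resistant mice (0.26 to 0.92).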

How the data were processed

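RNA of 24 tumour fractions resected at 1300 mm3 was measured on Agilent mouse arrays with 1 colour (Cy3). The deposited scanner files hold intensity values, which Agilent Feature Extraction 10.7.3.1 had background-subtracted and detrended within each array, per the file headers, while the submitters' processing notes give version 9.1. The value table of the authors holds intensity values normalized between arrays by a method not given in the sources used here, and it served as an alternative. Here, processed signals were put on the log2 scale and set relative to the 75th percentile of their array, without control spots and spots flagged as outliers.

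Probes were named through their RefSeq accession in the RefSeq table of GRCm38.p6, which named 26582 of 55681 probes and 20145 genes. The brightest probe over the 24 arrays stood for a gene, and a gene was tested where its probe was well above background on at least 4 arrays of the fit. Within-mouse differences (EC minus bulk) were fitted with lmFit and eBayes of limma 3.58.1 in R 4.3.3, and p-values were adjusted over all genes tested by the Benjamini-Hochberg method, with a threshold of 0.05. Differences between mouse groups were tested on the same within-mouse differences. The code was tested on simulated data. Separate mice are named in the titles, and these numbers pair both fractions of a tumour. The correlation of deviations from the group mean between fractions of the same sensitive mouse was 0.20, 0.16, 0.46 and 0.36 for mice 2 to 5. It was 0.065 to 0.33 in resistant and 0.33 to 0.48 in vehicle mice, where resistant mouse 4 (0.065, against 0.10) and vehicle mouse 3 (0.35, against 0.37) correlated slightly more with another mouse. Both fractions of resistant mouse 4 carry the same other number in the names of the deposited tables, so the pair is the same by either number.

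Genes named in the text are the 12 largest rises and 12 largest falls among called genes without overlap that were well above background on all 8 arrays, the 8 largest bounds, list members, and the 5 smallest p in each direction of the tests between mouse groups. Some further genes called between sensitive and resistant mice are named as well. The members of the comparison and the gene lists were chosen with earlier results of these data known. Alternatives were no pairing, normexp (offset 50), quantile normalization, the deposited table, array median centring, other filters and probe rules, a shared spread, and leaving out each mouse. Normexp used the median pixel signal, because the files carry no mean signal. Bounds used, for each bulk array, the higher of the lowest signal called well above background and the signal of the probe. Other samples of the series are not used here, and some list members that were counted are not reported by name.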

Additional observations from a re-analysis of the deposited data

Results flagged for a closer look

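Values of single mice that lay far from the other 3 mice of their group were looked for in 362 groups of 4, and 20 (5.52%) held one, where chance alone marks about 1 in 20. In sensitive mouse 4 the difference between EC and bulk was far from those of mice 2, 3 and 5 for Cdh5 (6.94, against 8.72 to 8.87), Cxcl12 (4.62, against 5.67 to 5.87), Fabp4 (5.33, against 7.63 to 8.05) and Sox18 (5.87, against 7.59 to 7.79). These are 4 genes of vessels, and the bulk array of the same mouse had the highest endothelial identity median of its group (-0.57). The difference of mouse 4 was also apart for Ifng (-4.17, against -2.91 to -2.80). Mouse 2 was apart for Lyl1 (0.77, against 2.32 to 2.58) and Snai1 (-0.30, against -0.75 to -0.72), mouse 3 for Tagln (0.64, against 1.30 to 1.40), and mouse 5 for S100a9 (0.60, against -0.68 to -0.47) and Thbd (5.53, against 3.45 to 3.69). Over the receptors that sunitinib inhibits, the median of mouse 2 was apart from the others (1.77, against 2.39 to 2.47).

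In resistant mice, mouse 2 stood apart in the median difference of 4 lists, which were lymphatic endothelial (0.96, against 2.96 to 3.07), eosinophil (-3.13, against -1.18 to -1.03), skeletal muscle (-3.21, against -0.12 to 0.28) and hypoxia genes (0.45, against -0.01 to 0.03). Its bulk array had 83.4% of probes well above background, against 55.3% to 58.7% in the others. Mouse 1 stood apart in the chemokine and cytokine list (0.25, against 1.89 to 2.19). In vehicle mice, mouse 3 stood apart in the angiopoietin list (1.09, against 2.75 to 2.90) and the immediate early list (2.68, against -0.22 to -0.08), and mouse 5 in the arterial list (1.79, against 1.60 to 1.63).

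By limma's test of the within-mouse differences, the difference between EC and bulk itself differed between mouse groups for some genes with adjusted p under 0.05. Those given here are list members and genes with the smallest p. Between sensitive and vehicle mice it was H2-M10.2 (adjusted p 0.0192), with no size given because it was well above background on no vehicle bulk array. Sensitive minus resistant mice gave 3.97 for Cdh5, 3.89 for Robo4, 3.25 for Emcn, 2.60 for Cldn5, 2.76 for Tie1 and 2.23 for Adgrf5. It was 3.99 for Sox7, 3.54 for Sox18, 3.08 for Nid2, 3.07 for Esm1, 2.72 for Tspan7, 3.13 for Ramp2, 2.40 for Rasip1, 2.64 for Shank3, 2.54 for Cxcl12 and 3.75 for Foxp3. Adgrl4 (adjusted p 0.0182), Ldb2 (0.0266) and Sox17 (0.0266) were well above background on no sensitive bulk array and Nap1l3 (0.0266) on no resistant EC array, so only their adjusted p is given. For sensitive minus resistant mice, mouse group and slide layout cannot be told apart. The median of the eosinophil list was above 0 in all 4 sensitive mice and below 0 in all 4 resistant mice, with a difference of 2.36 between the means of these medians, and this difference was not tested. These medians cover 6 genes, of which only 4 were bright enough to be tested in resistant mice.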

How the results depend on the processing

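In sensitive mice the count of called genes was 8499 and kept within 1.5 times of it in the gene-level settings (6212 with a spread shared by all 12 mice to 9614 with array median centring), and it was 18910 of all probes when every probe was tested. Leaving out 1 mouse gave 6596 to 7249, with fewer mice in the fit. In vehicle mice it was 6090, 13625 with every probe and 0 to 5548 without 1 mouse (0 without mouse 4, when 5588 genes still had an unadjusted p under 0.05). In resistant mice it was 2285, 954 with quantile normalization, 440 with array median centring, 72 with no filter, 1329 with every probe, 5534 with the shared spread and 670 to 2363 without 1 mouse. Array median centring changed the share of higher calls to 30.7% in sensitive (46.8% with the 75th percentile), 99.8% in resistant (61.3%) and 24.9% in vehicle mice (52.0%).

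For sensitive minus vehicle mice the count was 1. It was 0 with normexp, quantile normalization, the deposited table, array median centring, signals above background on every array, every probe and the shared spread, where 790 to 5786 genes or probes had an unadjusted p under 0.05, and 0 to 6 without 1 mouse. For sensitive minus resistant mice it was 34, 266 with normexp, 97 with quantile normalization, 237 with the deposited table, 0 with array median centring, 168 with signals above background on every array, 11 with no filter, 0 with every probe, 264 with the shared spread and 0 to 693 without 1 mouse. Without the replicate block, that is with fractions as independent groups, the counts were 8360 in sensitive, 2384 in resistant and 5202 in vehicle mice, 4 for sensitive minus vehicle and 218 for sensitive minus resistant. A block for the slide could not be fitted, since no slide holds both fractions of sensitive or vehicle mice. The cause of these changes was not tested. Some settings also have fewer mice or genes in the fit by construction.

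Of 2767 pairs of a named gene and a setting, 2547 kept direction and side of the threshold, 148 lost the call, 14 gained one and 58 changed sign. Sign changes concerned genes that were not called in sensitive mice. With normexp background correction of the median signal, chosen after the data were seen, these became -0.047 for Angpt1, 0.0039 for Col1a1, -0.017 for Kdr, -0.0037 for Klrb1c, -0.052 for Ncr1 and 0.10 for Vcam1. With quantile normalization, these became -0.063 for Angpt1, 0.13 for Col1a1, -0.15 for Flt3, -0.18 for Gp1bb, -0.24 for Ncr1, 0.20 for S100a9, 0.16 for Vcam1 and 0.0083 for Vegfc. With the deposited value table, these became -0.12 for Angpt1, 0.15 for Col1a1, -0.018 for Flt3, -0.00063 for Klrb1c, -0.11 for Ncr1, -0.0032 for Notch1, 0.12 for S100a9 and 0.20 for Vcam1. With array median centring, these became -0.19 for Angpt1, -0.031 for Cd4, -0.21 for Efnb2, -0.17 for Flt3, -0.093 for Fos, -0.17 for Gp1bb, -0.056 for Hspg2, -0.15 for Itgam, -0.22 for Kdr, -0.23 for Ncr1 and -0.13 for Notch1. With the mean of all tested probes of a gene, these became 2.50 for Epas1, -0.11 for Gp1bb and 0.087 for Madcam1. The difference of Nap1l3 between sensitive and resistant mice, which was called, became -0.15 with normexp. Without 1 mouse the ranges were -0.46 to 0.28 for Col1a1, -0.10 to 0.16 for Efnb2, -0.062 to 0.18 for Gp1bb, -0.11 to 0.17 for Kdr, -0.82 to 1.25 for Notch1, -0.11 to 0.060 for Vcam1, -0.22 to 0.57 for Cd4, -0.053 to 0.25 for Flt3, -0.96 to 0.32 for Gp9, -0.18 to 0.31 for Itgam, -0.46 to 0.20 for Madcam1, -0.34 to 0.11 for Vegfc, -0.10 to 0.17 for Ncr1 and -0.41 to 0.33 for Angpt1. The bulk signals of genes dim in bulk, and the 4 mice in a group, limit the size of single differences.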
